A study of Homo sapiens with 12 samples.

Results

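Transforming growth factor beta 1 (TGF-β1) given alone was compared with dexamethasone given alone in BEAS-2B cells, which are human airway lining cells kept dividing by viral genes. The comparison rests on 3 libraries per treatment, and the genes described are those past a filter on low counts, 13469 of the 28395 gene identifiers in the count table. Among them are 860 genes that the treatments drove apart: both effects against the untreated cells passed the test, with opposite signs, and so did the direct difference between the treatments. All cells had first been kept for 24 h in medium free of serum and steroid. The TGF-β1 group then received TGF-β1 at 40 pM for 24 h, and the dexamethasone group received dexamethasone at 30 nM for 4 h. Further libraries, 3 per group, came from untreated cells and from cells given TGF-β1 and then dexamethasone, and they serve here to place the single treatments. The treatments differ in agent, dose and length of exposure, which cannot be told apart. The sources used here do not give the vehicle of either agent, or say whether cells given TGF-β1 alone stayed in it for the further 4 h. The 3 libraries of a group are biological triplicates by the labels. All cells come from a single immortalised line, BEAS-2B by 3 fields of the labels (source, cell type, treatment), although the growth field says A549, a lung tumour line.

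TGF-β1 binds a complex of type I and type II receptors that phosphorylates SMAD2 and SMAD3. These join SMAD4, enter the nucleus and switch on genes of the matrix and the cytoskeleton, together with inhibitors of the pathway itself. Dexamethasone is a synthetic glucocorticoid that binds the glucocorticoid receptor, NR3C1, a transcription factor that is held by chaperones in the cytoplasm until it binds a steroid. In airway epithelium, glucocorticoids are known for lowering cytokine transcripts and raising anti-inflammatory ones, and TGF-β1 is known for driving epithelial-mesenchymal transition and fibrosis.

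Total counts in the 6 libraries compared lay between 6175052 and 19727235. The replicate 3 libraries were the deep ones, with 19039860 counts or more, while no other library passed 6599059. Mitochondrial DNA transcripts took 2.355% to 3.002% of counts with TGF-β1, 3.687% to 3.853% with dexamethasone and 3.44% to 3.562% in untreated cells. All 13 of these transcripts were higher with dexamethasone (median log2 difference −0.41), beside 28.3% of all genes. The part of this shift in any result was not tested. All 12 markers fixed for airway epithelium were expressed well enough to be tested. Of these 3 were higher with TGF-β1 and 6 with dexamethasone, beside 26.3% and 28.3% of all genes. On unscaled totals KRT8 was at 440 to 912 CPM in the 6 libraries. EPCAM was at 6.5 to 11.6, GRHL2 at 5.9 to 10.2 and ELF3 at 2.9 to 10.5 CPM. Of the 15 markers of alveolar and A549 cells, 4 could be tested. These 15 markers summed to 109 to 118 CPM with TGF-β1 and 91.8 to 154 CPM with dexamethasone on unscaled totals, mostly from ABCC3. Among them CPS1 was at 12.8 to 28.5 CPM in the 6 libraries, and AKR1B10 at 7.22 to 9.48 CPM with dexamethasone and at most 0.455 CPM with TGF-β1. SFTPB, SFTPC and NAPSA stayed under 1 CPM, CEACAM6 had no count, and 2 of the 4 tested were higher with dexamethasone, beside 28.3% of all genes. Of the 10 secretory-cell markers 2 were tested and both were higher with dexamethasone than with TGF-β1, beside 28.3% of all genes. SLPI was at 19.8 to 21.8 CPM with dexamethasone, 15.2 to 21.3 CPM untreated and 3.41 to 5.34 CPM with TGF-β1. MUC5B was at 1.32 to 4.7 CPM with dexamethasone, 2.11 to 10.1 CPM untreated and 0.648 to 1.97 CPM with TGF-β1. SCGB1A1, SCGB3A2 and BPIFA1 had no count in the 6 libraries. The secretory list summed to 4.46 to 6.48 CPM with TGF-β1, 21.4 to 27.1 CPM with dexamethasone and 17.8 to 33.6 CPM untreated. The part of these cell markers in any result was not tested. In the 6 libraries compared haemoglobin transcripts summed to at most 0.307 CPM.

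Levels below are CPM, counts per 1000000 on library totals scaled by edgeR's trimmed mean of M-values, given as mean ± SD over n = 3 libraries. Differences are log2 fold changes of TGF-β1 minus dexamethasone, each with a standard error (SE), taken from the quasi-likelihood test of edgeR with the replicate number as a block, so a positive value is a higher level with TGF-β1. P-values are adjusted by Benjamini-Hochberg over the 13469 genes, and under 0.05 counts as past the test. CPM is not divided by transcript length, so levels are compared between libraries and not between genes.

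The single treatments left the cells with widely different transcriptomes. Of the 13469 genes, 7358 (54.6%) passed the test, 3540 (26.3%) higher with TGF-β1 and 3818 (28.3%) higher with dexamethasone. At least 2-fold differences were found for 909 genes (6.75%) higher with TGF-β1 and 976 (7.25%) higher with dexamethasone. At least 16-fold, the counts were 64 and 54, and at least 64-fold they were 10 and 9. The 3 libraries of one treatment lay wholly above those of the other for 6398 genes (47.5%). Most of the calls are therefore small differences, and the size of a difference says more than the call. With library totals left unscaled, 2281 genes were higher with TGF-β1 and 5650 with dexamethasone, the share of calls higher with TGF-β1 fell from 48.1% to 28.8%, and the median difference of all genes moved from −0.02 to −0.18, so differences near 0 depend on the scaling.

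**Figure D1:**
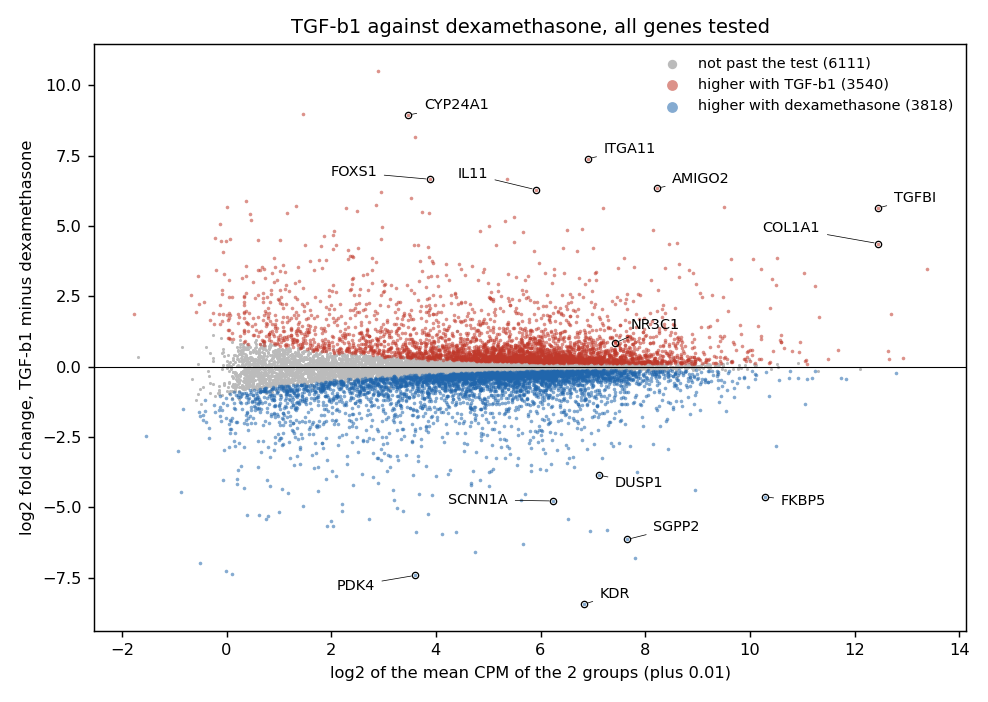
Log2 difference of TGF-β1 minus dexamethasone (vertical axis) against the log2 of the mean CPM of both groups plus 0.01 (horizontal axis), 1 point per gene tested, coloured where the test passed. The 3540 genes higher with TGF-β1 lie above 0 and the 3818 higher with dexamethasone below it, and KDR and CYP24A1 lie near the opposite edges.

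Dexamethasone passed the test against untreated cells for 1461 higher and 1535 lower genes (10.8% and 11.4%), and TGF-β1 for 3308 higher and 3433 lower genes (24.6% and 25.5%). These comparisons share the untreated libraries. Most of the genes separating the treatments had moved from the untreated level with TGF-β1 and had no dexamethasone call. Of the 3540 genes higher with TGF-β1, 2064 (58.3%) rose with TGF-β1 and did not pass with dexamethasone, 385 (10.9%) fell with dexamethasone and did not pass with TGF-β1, and 428 (12.1%) did both. Of the 3818 genes higher with dexamethasone, 1964 (51.4%) fell with TGF-β1 without a dexamethasone call, 506 (13.3%) rose with dexamethasone without a TGF-β1 call, and 432 (11.3%) did both. A further 439 and 556 genes separated the treatments with neither call against untreated cells.

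The genes driven apart number 428 raised by TGF-β1 and lowered by dexamethasone (3.18% of those tested) and 432 of the reverse (3.21%). Their median differences between treatments were 1.36 and −1.36. For the first set the median effect against untreated cells was 0.75 with TGF-β1 and −0.55 with dexamethasone, and for the second −0.63 and 0.56. These values chose the genes and are given as a description. The counts are sensitive to the spread allowed between libraries. Without the replicate block they were 170 and 193, without replicate 1 of all groups 231 and 224, and without replicate 3 of all groups 233 and 262. Leaving out only dexamethasone replicate 3 left 279 of the first kind.

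CYP24A1, the mitochondrial hydroxylase that degrades the active form of vitamin D, had the largest fitted difference of the genes driven apart whose mean level passed 1 on the log2 CPM scale. It lies on chromosome 20 from 54143538 to 54173986 (GRCh38.p14, as all positions here). Its level was 25.4, 24.4 and 16.5 CPM with TGF-β1, 0.758, 0.621 and 0.628 CPM in untreated cells, and 0, 0 and 0.0479 CPM with dexamethasone. The 3 TGF-β1 libraries held 598 reads of it and the 3 dexamethasone libraries 1, a ratio of 685 after scaling, with an exact 95% interval from 122 to 2.71e+04 that covers counting error only. After both treatments it was 1.96 ± 0.159 CPM, above the untreated and far below the TGF-β1 level.

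FOXS1, a forkhead transcription factor, was at 31.7, 30.5 and 25.4 CPM with TGF-β1, 3.64, 2.79 and 2.46 CPM untreated and 0.148, 0.297 and 0.287 CPM with dexamethasone. No library of one group reached the range of another, and the difference between treatments was 6.66 (SE 0.22, adjusted p = 2.63e-16). AMIGO2, an adhesion protein with leucine-rich repeats, was at 663, 455 and 645 CPM with TGF-β1, 53.8, 58 and 41.7 CPM untreated and 9.31, 7.14 and 6.51 CPM with dexamethasone. The difference was 6.34 (SE 0.30, adjusted p = 2.41e-06). Semaphorin 7A, encoded by SEMA7A, is a membrane-anchored guidance protein that binds integrins. It was at 196, 153 and 141 CPM with TGF-β1, 42.3, 43.8 and 29.5 CPM untreated and 8.13, 10.9 and 7.23 CPM with dexamethasone, a difference of 4.23 (SE 0.14).

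The EGF receptor ligand HBEGF was also among the 10 genes with the largest opposite effects in this direction. It was at 38.5, 23.4 and 21.5 CPM with TGF-β1, 6.37, 8.38 and 5.51 CPM untreated and 0.591, 0.892 and 1.72 CPM with dexamethasone. FGF5, a fibroblast growth factor, was at 38.2, 6.18 and 33.3 CPM with TGF-β1, 5.76, 1.24 and 4.73 CPM untreated and 1.18, 0.446 and 0.479 CPM with dexamethasone. Replicate 2 was the lowest for FGF5 in each of these groups, so its difference of 5.50 (SE 0.23, adjusted p = 1.69e-14) shows within replicate numbers while untreated and TGF-β1 libraries nearly meet. GREM1, a secreted antagonist of bone morphogenetic proteins, was at 666 ± 130 CPM with TGF-β1, 124 ± 31.7 CPM untreated and 32.9 ± 3.74 CPM with dexamethasone. VASN, a membrane protein that binds and traps TGF-β, was at 361 ± 77.4, 96.7 ± 13.2 and 25.1 ± 2.36 CPM in the same order. The potassium channel gene KCNJ12 and the growth factor gene GDF6 complete these 10 genes, with differences of 5.99 and 5.63.

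**Figure D2:**
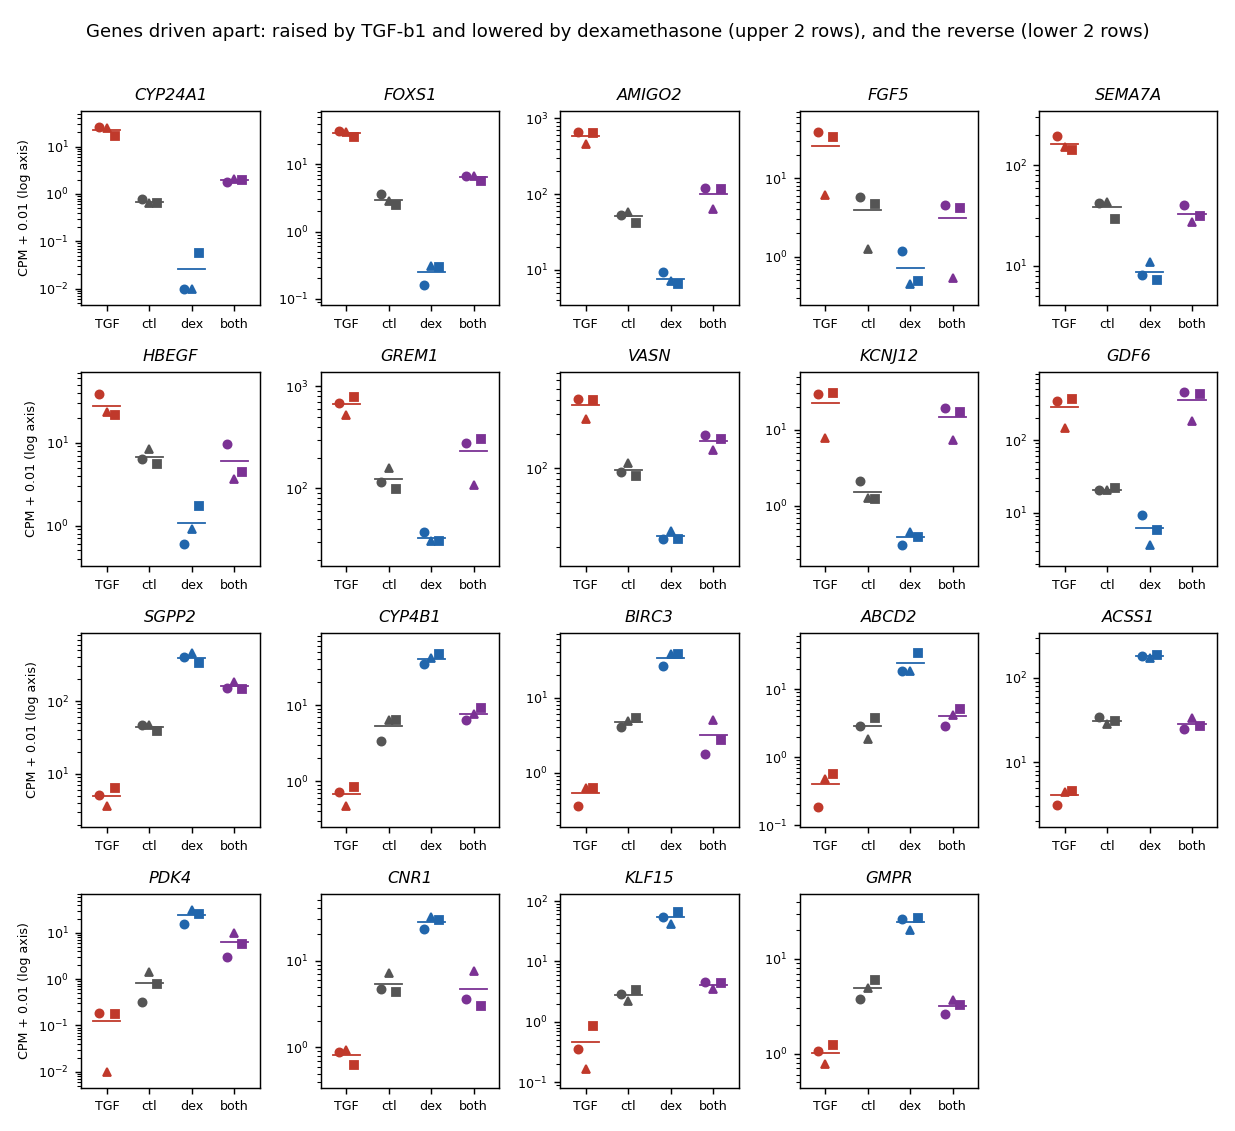
CPM plus 0.01 on a log axis in untreated cells (ctl), with TGF-β1 (TGF), with dexamethasone (dex) and with both, 1 panel per gene for genes driven apart. Circles, triangles and squares are replicates 1, 2 and 3 and the bar is the group mean. In the upper genes TGF-β1 lies above and dexamethasone below the untreated libraries, for example FOXS1 at 29.2, 2.96 and 0.244 CPM, and in the lower genes the order is turned, for example SGPP2 at 4.99, 44 and 398 CPM.

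SGPP2 was among the 10 genes with the largest opposite effects in the other direction. It encodes a phosphatase that removes the phosphate of sphingosine 1-phosphate, a lipid messenger. It was at 5.08, 3.56 and 6.34 CPM with TGF-β1, 46.7, 46.9 and 38.4 CPM untreated and 402, 453 and 339 CPM with dexamethasone, with wide gaps between all groups and a difference of −6.14 (SE 0.13, adjusted p = 2.09e-12). ACSS1, a mitochondrial acetyl-CoA synthetase, was at 3.15, 4.48 and 4.54 CPM with TGF-β1, 34.1, 28.7 and 30.9 CPM untreated and 182, 173 and 186 CPM with dexamethasone. PDK4, a kinase that turns off pyruvate dehydrogenase, was at 0.175, 0 and 0.168 CPM with TGF-β1, 0.303, 1.4 and 0.773 CPM untreated and 15.8, 31.2 and 25.2 CPM with dexamethasone. Its TGF-β1 level rests on 4 reads against 844, a ratio of 184 with an exact interval from 71.7 to 678.

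KLF15, a zinc-finger factor and a known direct target of the glucocorticoid receptor, was at 0.35, 0.155 and 0.841 CPM with TGF-β1, 2.88, 2.17 and 3.43 CPM untreated and 53.5, 42 and 64.9 CPM with dexamethasone. BIRC3, an inhibitor of apoptosis and a regulator of NF-κB signalling, was at 0.35, 0.619 and 0.617 CPM with TGF-β1, 4.09, 4.81 and 5.26 CPM untreated and 26.2, 38.2 and 37.5 CPM with dexamethasone. For both genes each dexamethasone library lay above each untreated one and each TGF-β1 library below. The peroxisomal transporter ABCD2 (difference −5.86), the cytochrome P450 CYP4B1 (−5.88), the cannabinoid receptor CNR1 (−5.22) and the purine enzyme GMPR (−4.53) had the same order of group means.

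Combined treatment mostly gave levels between those of the single treatments for the genes driven apart. The mean after both lay between the means of the single treatments for 398 of the 428 genes and 395 of the 432, against 6553 of all 13469, where the single treatments are often close together and leave less room. Against TGF-β1 alone the median difference after both was −0.40 and 0.53, and against dexamethasone alone 0.88 and −0.69, in the 2 sets. Of the 20 genes with the largest opposite effects 19 lay between. GDF6 was the exception, at 355 ± 151 CPM after both and 286 ± 122 CPM with TGF-β1. How far the level after both lay from each single treatment varied between genes: KCNJ12 was at 14.7 ± 6.48 CPM after both against 22.8 ± 12.9 CPM with TGF-β1, and SGPP2 at 161 ± 19.5 CPM after both against 398 ± 57.2 CPM with dexamethasone. KLF15 and BIRC3 lay near the untreated level after both, at 4.13 ± 0.57 and 3.19 ± 1.68 CPM.

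KDR, the main receptor for vascular endothelial growth factor, had the largest difference higher with dexamethasone among the genes at a mean log2 CPM of at least 1. It was at 163, 336 and 184 CPM with dexamethasone, 0.701, 0.464 and 0.617 CPM with TGF-β1 and 0, 0.621 and 0.193 CPM untreated. The difference was −8.43 (SE 0.15, adjusted p = 1.41e-18). It was not driven apart, since the TGF-β1 level did not pass the test against untreated cells (1.27, SE 0.59, adjusted p = 0.0804). KDR also marks endothelium, and of the 12 endothelial markers none of the other 11 reached 3 CPM in any of the 6 libraries, counted on unscaled totals, with PECAM1 at most 2.038 CPM and VWF at most 0.941 CPM. The 250 bases before its start are shown because a single 6-base arm of the glucocorticoid receptor's palindromic site, AGAACA or its complement TGTTCT, lies in them. They are taken from RefSeq on GRCh38.p14, chr4:55125596-55125845, minus strand, 5′ to 3′, with the arm at positions −211 to −206 from the start in capitals.
KDR: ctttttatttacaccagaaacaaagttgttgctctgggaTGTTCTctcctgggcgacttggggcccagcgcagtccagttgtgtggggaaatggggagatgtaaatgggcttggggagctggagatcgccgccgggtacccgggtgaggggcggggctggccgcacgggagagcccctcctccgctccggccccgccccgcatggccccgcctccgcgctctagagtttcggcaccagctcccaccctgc
That arm stood in 7.22% of the 10659 tested genes with a promoter in the table, in 7.75% of those at least 2-fold higher with dexamethasone and in 8.28% of those at least 2-fold higher with TGF-β1, close shares. The core of the full site, ACANNNTGT, searched on both strands, stood in 2.24% of tested promoters, in 4.15% (30 of 723) at least 2-fold higher with dexamethasone and in 2.41% (16 of 664) at least 2-fold higher with TGF-β1. Its share was 3% (10 of 333) for genes lowered by TGF-β1 and raised by dexamethasone, and 1.17% (4 of 342) for the reverse. Over all 27305 promoters, of tested genes or not, it was 4.68%. A match is a run of letters and not a shown binding site.

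Genes known as glucocorticoid targets were higher with dexamethasone for the most part. Of 28 tested, 25 passed in that direction and 3 in the other, ANGPTL4 (1.29), GADD45B (0.41) and RHOB (0.18), beside 28.3% and 26.3% of all genes. The median difference was −2.38, against −0.02 over all genes. Against untreated cells 25 of the 28 rose with dexamethasone, while with TGF-β1 15 fell and 5 rose, and 14 were driven apart. Over all genes 10.8% rose with dexamethasone, 25.5% fell and 24.6% rose with TGF-β1, and 3.21% were lowered by TGF-β1 and raised by dexamethasone. The call for RHOB was lost under most alternatives, and that for ANGPTL4 without replicate 3 (adjusted p = 0.147).

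FKBP5, a co-chaperone that restrains the receptor, was at 2241, 2484 and 2505 CPM with dexamethasone, 158, 145 and 180 CPM untreated and 90.6, 98.2 and 104 CPM with TGF-β1, a difference of −4.62 (SE 0.11, adjusted p = 1.31e-11). ZBTB16, a zinc-finger repressor, was at 99.7, 92.8 and 107 CPM with dexamethasone, 3.03, 1.09 and 4.01 CPM untreated and 0.876, 0.464 and 1.74 CPM with TGF-β1. The untreated and TGF-β1 ranges of ZBTB16 overlapped while those of FKBP5 did not. SCNN1A, a pore-forming chain of the sodium channel ENaC, was at 131, 130 and 175 CPM with dexamethasone, 56.9, 45.8 and 76.6 CPM untreated and 4.03, 4.64 and 6.84 CPM with TGF-β1, a difference of −4.77 (SE 0.10, adjusted p = 1.9e-19). Against untreated cells the TGF-β1 effect on SCNN1A was −3.49 and the dexamethasone effect 1.28. For PER1, a clock gene and direct receptor target, only the dexamethasone libraries stood apart: 307, 305 and 268 CPM, against 39.6, 45.8 and 38 CPM with TGF-β1 and 44.6, 34.6 and 42.3 CPM untreated. DUSP1, a phosphatase that turns off MAP kinases, was at 268, 292 and 224 CPM with dexamethasone and 15.9, 23.4 and 14.7 CPM with TGF-β1.

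SGK1, a kinase that raises sodium channel activity, rose with both treatments, from 19.8 ± 4.19 CPM untreated to 74.4 ± 14.1 CPM with TGF-β1 and 169 ± 21.1 CPM with dexamethasone, and the treatments still differed by −1.22 (SE 0.17, adjusted p = 0.000596). The metallothioneins are small proteins that bind zinc and copper. Of 6 list members tested 5 passed higher with dexamethasone (28.3% of all genes), with MT1E at −4.14, MT1X at −1.45 and MT2A at −0.97. Without replicate 1 of all groups 3 of them passed and the adjusted p for MT2A was 0.109, and its call was also lost without TGF-β1 replicate 2 and with 6 libraries only. Their near-identical sequences mean that reads may be split between members, and the sources used here do not give how such reads were counted.

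The receptor itself, NR3C1 on chromosome 5, was lower than untreated with both treatments and lowest with dexamethasone. It was at 275, 348 and 293 CPM untreated, 194, 248 and 221 CPM with TGF-β1 and 104, 152 and 116 CPM with dexamethasone. The treatments did not overlap and differed by 0.85 (SE 0.05, adjusted p = 2.16e-11). Among 19 genes of the receptor machinery 7 were higher with TGF-β1 and 7 with dexamethasone, beside 26.3% and 28.3% of all genes. The chaperone HSP90AA1 was lower with TGF-β1 than with dexamethasone (−0.46) and its close relative HSP90AB1 higher (0.60).

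**Figure D3:**
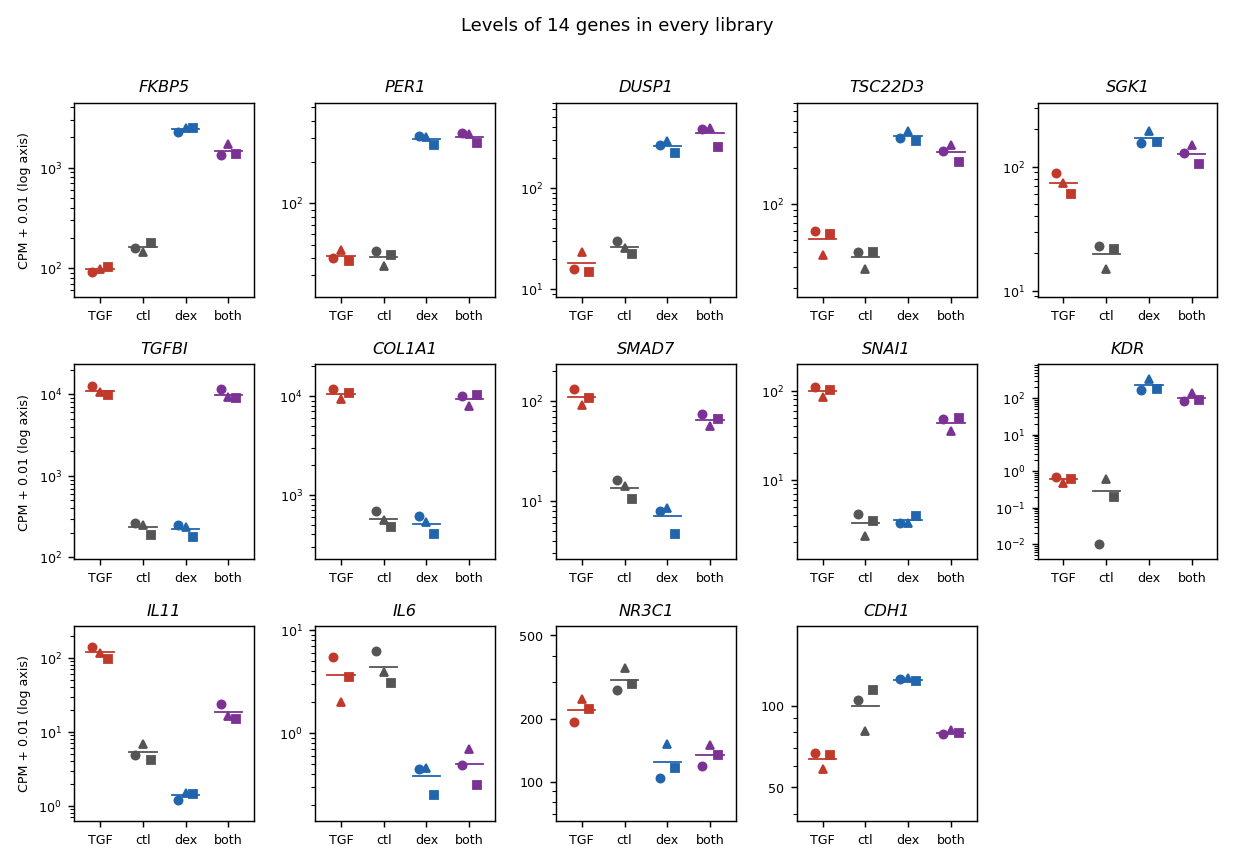
CPM plus 0.01 on a log axis for genes fixed by name, in untreated cells (ctl), with TGF-β1 (TGF), with dexamethasone (dex) and with both. Circles, triangles and squares are replicates 1, 2 and 3 and the bar is the group mean. FKBP5 is highest with dexamethasone at 2410 CPM against 97.5 CPM with TGF-β1, COL1A1 is highest with TGF-β1 at 10620 CPM against 514 CPM with dexamethasone, and SGK1 lies above the untreated libraries with either agent.

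Components of the TGF-β pathway were mainly higher with TGF-β1. Of 25 tested, 20 passed in that direction and 2 in the other, beside 26.3% and 28.3% of all genes, with a median difference of 1.4. Dexamethasone lowered 10 of the 25 against untreated cells and raised 5, beside 11.4% and 10.8% of all genes. Among the inhibitory feedback genes, SMAD7 and PMEPA1 were raised by TGF-β1 and lowered by dexamethasone. SMAD7, which blocks the receptor complex, was at 132, 92.5 and 108 CPM with TGF-β1, 16.1, 14.3 and 10.5 CPM untreated and 7.98, 8.48 and 4.64 CPM with dexamethasone, a difference of 4.12 (SE 0.16, adjusted p = 1.49e-09). PMEPA1, which sequesters receptor-activated SMADs, was at 1589, 1168 and 1539 CPM with TGF-β1, 61.7, 42.4 and 50.7 CPM untreated and 34.9, 18.3 and 32 CPM with dexamethasone. Neither gene overlapped between any 2 of these groups. LRRC32, which tethers latent TGF-β at the cell surface, had 173 reads with TGF-β1 and 0 with dexamethasone, which makes it at least 66.1-fold higher if the dexamethasone group is set to a floor of 3 counts in all.

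A pair of receptors ran the other way, while the type I receptor gene TGFBR1 was higher with TGF-β1 (0.62). TGFBR2, the type II receptor, was at 184, 205 and 185 CPM with TGF-β1, 362, 493 and 305 CPM untreated and 569, 654 and 433 CPM with dexamethasone, a difference of −1.5 (SE 0.10, adjusted p = 8.41e-07). TGFBR3, a co-receptor also known as betaglycan, was at 9.81, 12.5 and 8.24 CPM with TGF-β1, 39.9, 48.3 and 37.4 CPM untreated and 119, 96.8 and 136 CPM with dexamethasone. These were the 2 members of the list higher with dexamethasone, and both were driven apart, although the untreated and dexamethasone ranges of TGFBR2 overlapped. SMAD3, the transcription factor that carries the signal, fell with both, from 192 ± 21.8 CPM untreated to 93 ± 18.7 CPM with TGF-β1 and 70.3 ± 6 CPM with dexamethasone. The direct difference of 0.39 (95% interval 0.02 to 0.77, adjusted p = 0.0713) missed the threshold, and passed it under several alternatives, among them no block (adjusted p = 0.0336) and DESeq2 (adjusted p = 0.00521).

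The upstream bases of SMAD7 and of IL11, a cytokine that signals through gp130, are shown as the feedback gene and the target gene with the clearest opposite effects among the genes fixed by name. They are taken from RefSeq on GRCh38.p14, chr18:48950966-48951215 and chr19:55370464-55370713, both minus strand, 5′ to 3′. Capitals mark the SMAD motif CAGAC, which starts at −217 and −128 before SMAD7, and the AP-1 motif TGANTCA (AP-1 is the family of FOS and JUN factors), which spans −96 to −90 before IL11.
SMAD7: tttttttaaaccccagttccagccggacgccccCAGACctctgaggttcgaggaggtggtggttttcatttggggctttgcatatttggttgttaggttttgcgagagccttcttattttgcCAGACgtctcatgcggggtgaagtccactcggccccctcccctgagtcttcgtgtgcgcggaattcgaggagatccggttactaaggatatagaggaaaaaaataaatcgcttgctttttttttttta
IL11: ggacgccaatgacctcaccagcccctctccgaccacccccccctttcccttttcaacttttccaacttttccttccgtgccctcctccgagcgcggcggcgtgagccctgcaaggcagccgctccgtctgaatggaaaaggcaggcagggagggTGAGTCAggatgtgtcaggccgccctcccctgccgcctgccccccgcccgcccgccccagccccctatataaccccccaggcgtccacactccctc
At least 2 CAGAC motifs, on either strand, stood in 7.53% of the promoters of tested genes and in 9.94% of those at least 2-fold higher with TGF-β1, against 6.5% of those at least 2-fold higher with dexamethasone. TGANTCA stood in 3.85%, 6.02% and 4.7% in the same order. Of the 428 genes raised by TGF-β1 and lowered by dexamethasone, 342 had a promoter in the table, of which 7.89% and 4.68% held these motifs.

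Known TGF-β target genes were higher with TGF-β1 for 17 of 19 tested, beside 26.3% of all genes, with a median difference of 2.40. ID2 passed the other way (−0.96), a call lost under 5 alternatives: without replicate 3 (adjusted p = 0.57), without that library of either single treatment (0.394 and 0.21 for TGF-β1 and dexamethasone), without the block (0.0628) and with DESeq2 (0.119). TGFBI, a matrix protein named for its induction by TGF-β, was at 12570, 10630 and 9737 CPM with TGF-β1, 249, 238 and 177 CPM with dexamethasone and 267, 254 and 190 CPM untreated. The difference was 5.64 (SE 0.08, adjusted p = 3.09e-21), and dexamethasone against untreated cells gave −0.10 (adjusted p = 0.334). IL11 was at 142, 117 and 97.2 CPM with TGF-β1, 4.85, 6.83 and 4.15 CPM untreated and 1.18, 1.49 and 1.44 CPM with dexamethasone, and all 3 groups stood apart (6.29, SE 0.14, adjusted p = 5.12e-19). BHLHE40, a clock-related repressor, and CDKN2B, an inhibitor of cyclin-dependent kinases, were also raised by TGF-β1 and lowered by dexamethasone, with differences of 3.5 and 2.40. CCN2, a matricellular growth factor often used as a TGF-β marker, was at 220 ± 82.1 CPM with TGF-β1 and 171 ± 43 CPM with dexamethasone, and its difference of 0.34 (95% interval −0.22 to 0.90, adjusted p = 0.26) did not pass. It passed without dexamethasone replicate 2 (adjusted p = 0.00117) and without replicate 2 of all groups (adjusted p = 5.5e-18).

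Most genes of the matrix were higher with TGF-β1. Of 24 collagen genes tested 18 were higher with TGF-β1 (median 1.72), of 28 matrix glycoproteins and proteoglycans 19 (1.18), and of 19 enzymes that process and cross-link collagen 16 (0.846). Over all genes 26.3% were higher with TGF-β1. Dexamethasone against untreated cells raised 7, 5 and 6 of the list members and lowered 0, 4 and 1, with list medians of 0.06, 0.15 and 0.09. Over all genes it raised 10.8% and lowered 11.4%. COL1A1, the main chain of type I collagen, was at 11790, 9238 and 10820 CPM with TGF-β1, 608, 536 and 399 CPM with dexamethasone and 688, 559 and 471 CPM untreated, a difference of 4.38 (SE 0.19, adjusted p = 9.17e-07). FN1, fibronectin, was at 22920, 14580 and 21020 CPM with TGF-β1 and 2049, 1813 and 1377 CPM with dexamethasone, a difference of 3.47 (SE 0.19). COL1A2, COL4A1, SPOCK1 and MFAP2 differed by 4.91, 3.87, 4.85 and 5.17. Dexamethasone and untreated ranges overlapped for COL1A1, as they did for TGFBI.

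The members that went against their list were COL8A1, COL4A5 and COL4A6 among the collagens and LAMA5, HSPG2 and MATN2 among the glycoproteins. COL8A1 was at 33.3, 29.4 and 32 CPM with TGF-β1, 129, 124 and 133 CPM untreated and 208, 191 and 175 CPM with dexamethasone, 3 ranges with no overlap. LAMA5, a chain of the epithelial laminins, was at 219 ± 25.5 CPM with TGF-β1 and 707 ± 181 CPM with dexamethasone, and HSPG2, the basement membrane proteoglycan perlecan, at 153 ± 9.44 and 444 ± 12.6 CPM. Metalloproteases and their inhibitors included 19 of 27 members higher with TGF-β1 and 5 higher with dexamethasone, beside 26.3% and 28.3% of all genes. ADAM19, a membrane protease, was at 244 ± 27.1 CPM with TGF-β1, 28.9 ± 4.12 CPM untreated and 13.2 ± 2.56 CPM with dexamethasone.

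Fibroblast markers summed to 10020 to 11823 CPM on unscaled totals with TGF-β1, 715 to 1051 CPM with dexamethasone and 797 to 1151 CPM untreated. Of the 12 markers 6 could be tested, all higher with TGF-β1, beside 26.3% of all genes. COL1A1 makes up most of that sum. THY1 was at 304 to 522 CPM with TGF-β1 and 248 to 414 CPM with dexamethasone, with overlapping libraries. PDGFRB was at 167 to 186 CPM with TGF-β1 and 31.2 to 41.5 CPM with dexamethasone, and FAP at 26.2 to 122 and 0.47 to 3.65 CPM. DCN, LUM, DPT and TCF21 stayed at or under 0.303 CPM in each of the 6 libraries, and COL3A1 under 1 CPM. In bulk RNA more cells of a type and more RNA per cell cannot be told apart.

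Mesenchymal genes and transcription factors of epithelial-mesenchymal transition passed higher with TGF-β1 for 12 of 18 members and higher with dexamethasone for 4. Over all genes the shares were 26.3% and 28.3%. SNAI1, a repressor of E-cadherin, was at 109, 85.5 and 101 CPM with TGF-β1, 3.25, 3.27 and 3.92 CPM with dexamethasone and 4.09, 2.33 and 3.43 CPM untreated (4.79, SE 0.10, adjusted p = 4.58e-19). N-cadherin, CDH2, was at 275 ± 8.26 CPM with TGF-β1 against 129 ± 9.47 CPM with dexamethasone. TWIST1, another factor of this programme, went the other way, at 22.4, 26.4 and 24.7 CPM with TGF-β1, 45.2, 44.5 and 43.8 CPM untreated and 79.5, 70.8 and 62 CPM with dexamethasone (−1.5, SE 0.11, adjusted p = 1.3e-08). ACTA2, S100A4 and ZEB1 were the other members higher with dexamethasone, at −1.13, −1.30 and −0.52. Of these the calls for S100A4 and ZEB1 were lost without the block (adjusted p = 0.0734 and 0.0605).

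Epithelial junction genes passed higher with dexamethasone for 23 of 36 members and higher with TGF-β1 for 4, with a median of −0.41. Over all genes the shares were 28.3% and 26.3%. Against untreated cells 20 fell with TGF-β1 and 3 rose (25.5% and 24.6% of all genes). With dexamethasone 9 rose and 4 fell (10.8% and 11.4% of all genes). E-cadherin, CDH1, was at 126, 126 and 123 CPM with dexamethasone, 104, 80.5 and 115 CPM untreated and 66.8, 58.6 and 65.6 CPM with TGF-β1, a difference of −0.97 (SE 0.09, adjusted p = 1.07e-07). The desmosome genes PPL (periplakin) and PKP2 (plakophilin 2) had larger differences of −2.74 and −2.71, with PPL at 69.9, 92.6 and 61.9 CPM with TGF-β1 and 468, 568 and 444 CPM with dexamethasone. The count of 23 fell to 15 without replicate 3. The members higher with TGF-β1 were DSG2, PKP1, DSC2 and JUP, of which only the DSG2 call held under each alternative tried. Among keratins, KRT17 and KRT14 were higher with TGF-β1 (1.44 and 2.12) and KRT15, KRT19 and KRT18 higher with dexamethasone (−3.23, −2.08 and −1.23), and keratin paralogues can share reads. KRT7 rose with both, to 960 ± 211 and 1025 ± 264 CPM from 568 ± 148 CPM, with a difference between treatments of −0.09 (95% interval −0.18 to 0.01).

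Integrins and the actin cytoskeleton were divided. ITGA11, a collagen-binding integrin chain, was at 251, 185 and 279 CPM with TGF-β1 and 1.92, 2.23 and 1.1 CPM with dexamethasone (7.39, SE 0.31, adjusted p = 7.7e-07), while another collagen-binding chain, ITGA10, was at 8.25 CPM with TGF-β1 and 85.9 CPM with dexamethasone (−3.48). ITGA5, the fibronectin receptor chain, rose with each agent, from 124, 116 and 103 CPM untreated to 544, 408 and 556 CPM with TGF-β1 and 464, 517 and 341 CPM with dexamethasone, and reached 1543 ± 135 CPM after both. The difference between treatments was 0.20 (95% interval −0.22 to 0.63) and passed without dexamethasone replicate 2 (adjusted p = 0.0408) and without replicate 2 of all groups (adjusted p = 3.83e-05). Of 39 genes of actin, myosin and cofilin 22 were higher with TGF-β1 and 9 with dexamethasone, beside 26.3% and 28.3% of all genes. TPM1, tropomyosin, was at 2455 ± 242 CPM with TGF-β1 and 282 ± 28.8 CPM with dexamethasone, and VCL, vinculin, at 379 ± 18.9 and 1117 ± 50.7 CPM. Cofilin, CFL1, was at 1201 ± 56.7 CPM with TGF-β1 and 892 ± 72.1 CPM with dexamethasone, a difference of 0.43 (SE 0.05, adjusted p = 7.23e-08).

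**Figure D4:**
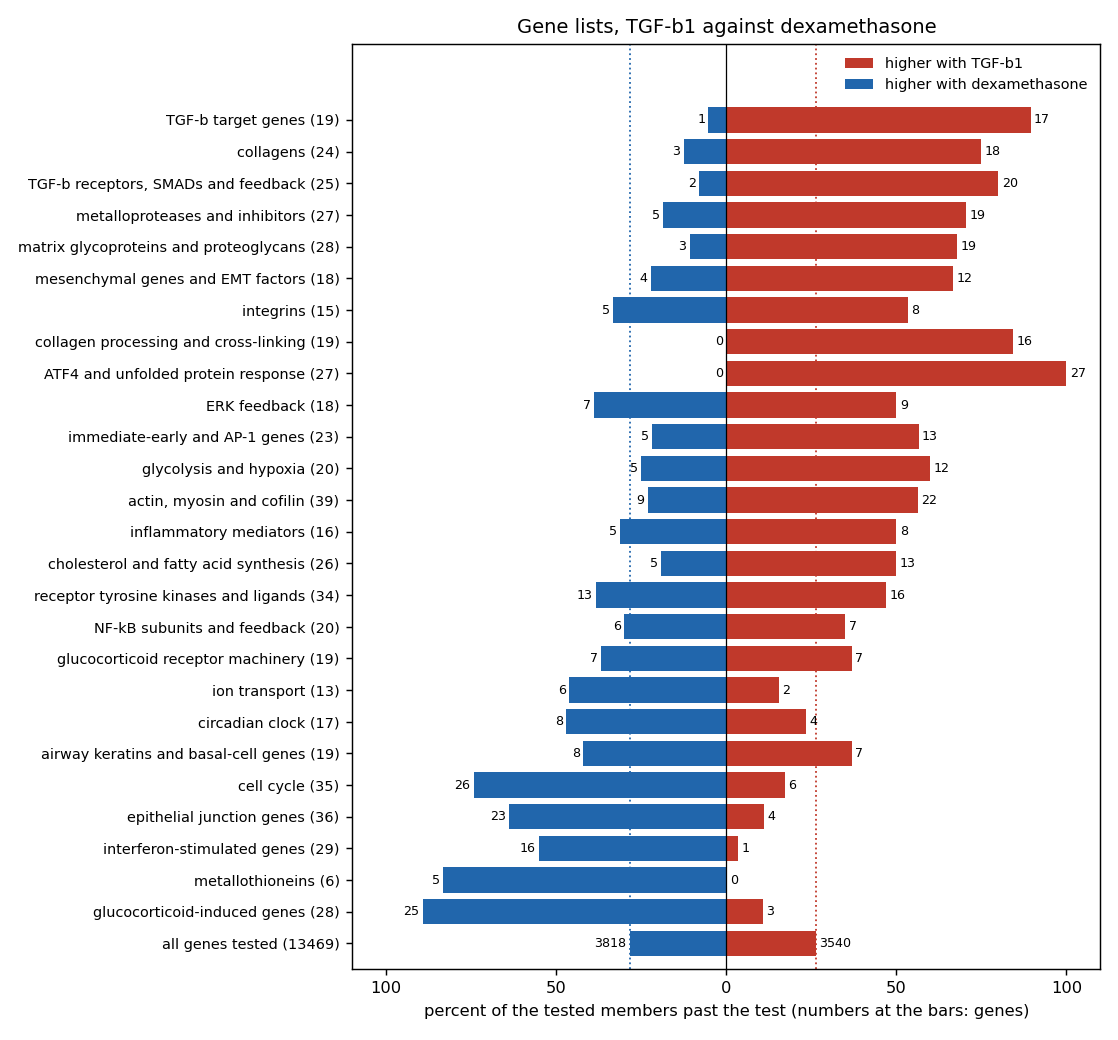
Share of the tested members of each gene list, in percent, that were higher with TGF-β1 (red, right of 0) or higher with dexamethasone (blue, left of 0), with the number of genes at each bar and the number tested in brackets. Glucocorticoid-induced genes, with 25 of 28 higher with dexamethasone, and the ATF4 and unfolded protein response list, with 27 of 27 higher with TGF-β1, reach farthest to either side, and dotted lines mark the 26.3% and 28.3% of all genes.

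Inflammatory mediators more often fell than rose against untreated cells with either agent. Of 16 tested 9 fell and 4 rose with TGF-β1 (25.5% and 24.6% of all genes), and 10 fell and 2 rose with dexamethasone (11.4% and 10.8% of all genes). Between the treatments 8 were higher with TGF-β1 and 5 with dexamethasone, beside 26.3% and 28.3% of all genes. LIF, a cytokine of the IL-6 family, was at 101, 40.4 and 60.9 CPM with TGF-β1, 24.9, 17.4 and 20.1 CPM untreated and 3.25, 2.98 and 3.25 CPM with dexamethasone (4.34, SE 0.16, adjusted p = 9.94e-13). IL6 was at 5.43, 2.01 and 3.53 CPM with TGF-β1, 6.22, 3.88 and 3.04 CPM untreated and 0.444, 0.446 and 0.239 CPM with dexamethasone, so its difference of 3.40 (SE 0.39, adjusted p = 2.03e-07) came with a dexamethasone effect of −3.55 and a TGF-β1 effect of −0.15 that did not pass. The neutrophil chemokine CXCL8 was lower than untreated with both, 3.36 ± 1.44 CPM untreated, 0.433 ± 0.23 CPM with TGF-β1 and 0.131 ± 0.152 CPM with dexamethasone. Its call between treatments (1.87, adjusted p = 0.0468) rests on 14 and 4 reads with overlapping libraries and was lost under most alternatives. CSF1, the macrophage growth factor, was higher with dexamethasone (−1.31).

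Of 20 NF-κB subunits and feedback genes 7 were higher with TGF-β1 and 6 with dexamethasone, shares near the 26.3% and 28.3% of all genes. NFKBIA, the inhibitor that holds NF-κB in the cytoplasm, was at 164, 234 and 135 CPM with dexamethasone, 36.8, 51.7 and 26.1 CPM untreated and 19.8, 21.2 and 15 CPM with TGF-β1 (−3.22, SE 0.08, adjusted p = 2.57e-18). BCL3, a nuclear cofactor of NF-κB, was higher with TGF-β1 (1.51), at 26.3 ± 9.74 against 8.89 ± 0.935 CPM. Interferon-stimulated genes were lower than untreated with either agent more often than higher: 21 of 29 fell with TGF-β1 and 1 rose, and 12 fell with dexamethasone and 1 rose. Over all genes 25.5% fell and 24.6% rose with TGF-β1, and 11.4% fell and 10.8% rose with dexamethasone. Between treatments 16 were higher with dexamethasone and 1, IRF1, with TGF-β1 (0.44). OAS1, an antiviral enzyme that senses double-stranded RNA, was at 28.8, 25.9 and 28.6 CPM untreated, 8.57, 7.14 and 8.62 CPM with dexamethasone and 1.4, 1.85 and 1.51 CPM with TGF-β1.

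Ligands and receptors of growth factor signalling were divided between the treatments. Of 34 tested 16 were higher with TGF-β1 and 13 with dexamethasone, beside 26.3% and 28.3% of all genes. TGF-β1 raised and dexamethasone lowered 9 of them, beside 3.18% of all genes. VEGFA, the ligand of KDR, was at 227, 95.5 and 248 CPM with TGF-β1, 73.7, 103 and 74.2 CPM untreated and 19.4, 23.6 and 21.4 CPM with dexamethasone (3.15, SE 0.41, adjusted p = 0.000655), the reverse of its receptor, and its TGF-β1 replicate 2 lay within the untreated range. The EGF receptor ligands went different ways. Amphiregulin, AREG, was at 61.6, 44.6 and 62 CPM with dexamethasone, 14.9, 10.2 and 12.6 CPM untreated and 6.83, 6.65 and 5.72 CPM with TGF-β1, opposite to HBEGF. Epiregulin, EREG, fell with both agents, from 32.5 ± 5.13 CPM to 11.8 ± 2.9 CPM with dexamethasone and 4 ± 1.48 CPM with TGF-β1.

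Among genes of ERK feedback 9 of 18 were higher with TGF-β1 and 7 with dexamethasone, beside 26.3% and 28.3% of all genes. Against untreated cells 8 fell and 4 rose with TGF-β1 (25.5% and 24.6% of all genes). With dexamethasone 9 fell and 3 rose (11.4% and 10.8% of all genes). IER3, an early-response gene that modulates cell survival, was at 214, 188 and 124 CPM with TGF-β1, 76.3, 68.8 and 46.5 CPM untreated and 6.8, 5.65 and 4.83 CPM with dexamethasone (4.87, SE 0.11, adjusted p = 2.19e-16). DUSP1, SPRY2 and ERRFI1, which restrain MAP kinases or the EGF receptor, were higher with dexamethasone at −3.86, −2.62 and −2.12. Of 23 immediate-early and AP-1 genes 13 were higher with TGF-β1 and 5 with dexamethasone, beside 26.3% and 28.3% of all genes. JUN was at 457, 327 and 404 CPM with TGF-β1, 123, 141 and 100 CPM untreated and 57.4, 81.2 and 61.9 CPM with dexamethasone, and JUNB differed by 2.48. FOS went the other way, at 12.4 ± 5.99 CPM with dexamethasone and 1.52 ± 0.383 CPM with TGF-β1.

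Cell cycle genes passed higher with dexamethasone for 26 of 35 members and higher with TGF-β1 for 6, beside 28.3% and 26.3% of all genes. Their small median of −0.26 was −0.42 with library totals left unscaled. The count of 26 was 17 without the block. Against untreated cells 27 fell with TGF-β1 and 5 rose (25.5% and 24.6% of all genes), and 7 fell and 6 rose with dexamethasone (11.4% and 10.8% of all genes). The proliferation marker MKI67 was at 691, 639 and 750 CPM with TGF-β1 and 1090, 951 and 1095 CPM with dexamethasone, near the 1049 ± 143 CPM of untreated cells. CDKN1C, which encodes the cell cycle inhibitor p57, was at 304 ± 93.7 CPM with dexamethasone, 16.4 ± 6.39 CPM untreated and 5.76 ± 3.18 CPM with TGF-β1, whereas CDKN2B, which encodes the inhibitor p15, was at 62.5 ± 1.15, 88.3 ± 11 and 334 ± 40.8 CPM in the same order. The polo-like kinase PLK2 and cyclin D1, CCND1, were below untreated with both agents and lower with dexamethasone, PLK2 at 278 ± 27.9 CPM untreated, 98.2 ± 12.8 CPM with TGF-β1 and 38.4 ± 4.82 CPM with dexamethasone.

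Genes of the unfolded protein response and the ATF4 pathway support protein folding and amino acid supply. All 27 tested were higher with TGF-β1, beside 26.3% of all genes, with a median of 0.80. With library totals left unscaled 23 passed. HSPA5, a chaperone that folds proteins in the endoplasmic reticulum, was at 1405, 1316 and 1237 CPM with TGF-β1, 455, 535 and 442 CPM with dexamethasone and 457, 531 and 458 CPM untreated (1.47, SE 0.07, adjusted p = 3.25e-11). SLC7A11, the cystine transporter, was in addition lowered by dexamethasone, at 25.6 ± 4.46, 11.3 ± 0.752 and 6.04 ± 1.1 CPM with TGF-β1, untreated and with dexamethasone.

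Glycolysis and hypoxia genes were higher with TGF-β1 for 12 of 20 and with dexamethasone for 5, beside 26.3% and 28.3% of all genes. HK2, the first enzyme of glycolysis, was at 217, 174 and 235 CPM with dexamethasone, 44.7, 40.4 and 59.2 CPM untreated and 41.2, 24.6 and 56.3 CPM with TGF-β1. After both it was at 48.4 ± 7.47 CPM. PFKFB3, which makes an activator of glycolysis, was raised by TGF-β1 and lowered by dexamethasone (2.10). CA9, a carbonic anhydrase, was at 2.69 ± 2.26 CPM with TGF-β1 and 61.8 ± 15.3 CPM with dexamethasone. Genes of cholesterol and fatty acid synthesis gave counts that moved with the setting. As fitted 13 of 26 were higher with TGF-β1 and 5 with dexamethasone, beside 26.3% and 28.3% of all genes. The count of 13 was 5 either without the block or with library totals left unscaled. Against untreated cells 13 members fell and 4 rose with TGF-β1 (25.5% and 24.6% of all genes). With dexamethasone 14 fell and 0 rose (11.4% and 10.8% of all genes). MLXIPL, a glucose-responsive transcription factor in that list, was at 0.35, 0.464 and 0.785 CPM with TGF-β1, 19.7, 12.3 and 28.1 CPM with dexamethasone and 18, 17.9 and 26 CPM untreated, a difference of −5.13 (SE 0.26) with no dexamethasone effect past the test.

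The circadian clock list held 8 of 17 members higher with dexamethasone and 4 with TGF-β1, beside 28.3% and 26.3% of all genes. NPAS2, a partner of BMAL1, differed by −2.36, from 7.58 CPM with TGF-β1 to 39.8 CPM with dexamethasone. CRY1, a repressor of the clock, was higher with TGF-β1 (0.58). CLOCK itself was at 57.8 and 57 CPM, a difference of 0.00 (95% interval −0.14 to 0.14).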

How the data were processed

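Per the labels, BEAS-2B RNA was purified on columns, polyadenylated RNA was selected and a library kit that does not mark strand was used, so a gene and an antisense partner cannot be told apart. The authors deposited raw counts of reads for each gene identifier, made with featureCounts on genome build hg38, per the submitters' processing notes. The aligner, annotation, strand setting and featureCounts version: not given in the sources used here. Of 18 count columns 12 match a labelled library, and the other 6 were not used here. A RefSeq gene table (GRCh38.p14) supplied names for 27745 of 28395 identifiers, with 99.943% of counts. Promoters are the 250 bases before each start in a RefSeq table of that assembly.

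Genes were kept by edgeR's filterByExpr (minimum count 10). A single edgeR model (4.0.16, in R 4.3.3 with limma 3.58.1) took in all 12 libraries, with group means, the replicate number as a block, trimmed-mean scaling and the robust quasi-likelihood test, since 6 libraries alone with a block leave 2 residual degrees of freedom against 6. The block is part of the comparison's rule, and the numbers come from the library titles. Libraries of the same number deviated together in 18 of 18 pairs (correlation of deviations from group means 0.25 to 0.541, over a limit of 0.1). The common biological coefficient of variation was 0.05772 with and 0.1217 without the block. Nothing beyond the word triplicates says that libraries came from separate cultures, so p-values may measure technical spread. No library was treated as a duplicate, since within each pair of replicates the counts differed beyond sampling noise. Standard errors were derived from the F statistic. Intervals of read counts cover counting error only, because without molecular identifiers several reads can stem from 1 molecule.

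Tested on simulated data, the fit of this comparison on 13245 genes recovered 94 of 99 genes changed 2-fold and 100 of 100 changed 4-fold, with 7 false calls. The simulation changed only this small set of genes, in the TGF-β1 libraries alone, and gave all genes the same spread. In the data 54.6% of genes were called, so the 7 false calls give no error rate for those calls. Alternatives were DESeq2 (1.42.0), other scalings, filters and blocks, 6 libraries only, and each library or replicate number left out.

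The comparison, the 26 gene lists and the rule for named genes were chosen with earlier results of these data known. Named were 30 fixed genes, the 15 largest called differences in each direction without overlap at a mean log2 CPM of at least 1, the 10 genes driven apart in each direction with the largest smaller effect, and per list up to 4 called members in each direction and up to 2 others. Some genes under this rule are not reported here. A few members that go against their list were named after their values were seen. Figures were made with matplotlib 3.10.9 in Python 3.11.15.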

Additional observations from a re-analysis of the deposited data

How the results depend on the processing

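Without the replicate block, where pairing by number is ignored, 2466 genes were higher with TGF-β1 and 2632 with dexamethasone, TGF-β1 against untreated gave 2186 and 2230 (higher and lower), dexamethasone against untreated 746 and 660, and genes driven apart numbered 170 (raised by TGF-β1) and 193. With 6 libraries only and no block the treatments differed for 2182 and 2360 genes. With library totals left unscaled 2281 genes were higher with TGF-β1, and TGF-β1 against untreated gave 1746 and 6200. At an adjusted p under 0.01 the genes driven apart numbered 262 and 276. Leaving out a library or a replicate number gave 2608 to 3691 genes higher with TGF-β1 and 2709 to 3978 higher with dexamethasone, 843 to 1115 and 928 to 1165 of them at least 2-fold, 2352 to 3472 and 2470 to 3539 for TGF-β1 against untreated, 892 to 1561 and 940 to 1675 for dexamethasone against untreated, and 231 to 512 and 224 to 458 driven apart. Dexamethasone against untreated had its lowest counts without replicate 1, and 967 lower genes without replicate 3. The cause of these moves was not tested. Directions turned for ALDOA with totals unscaled (−0.11, adjusted p = 0.0379) and for TNIP1 without replicate 2 (0.24, adjusted p = 0.00337). Both passed the test in the turned direction. The difference of TNIP1 ran from −0.24 to 0.24 over the replicates left out. Of 251 genes taken by the naming rule, not all of them described, 15 lost their call without the block, 2 with DESeq2 and 13 without replicate 1. Depth limits genes with few reads, such as CXCL8 (14 reads with TGF-β1 and 4 with dexamethasone) and PDK4 (4 with TGF-β1).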

Other observations

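Several genes with the largest differences belong to no list. TNFAIP6, which encodes a secreted protein that binds hyaluronan, was at 15.2, 19 and 11.6 CPM with TGF-β1 and 0.296, 0.149 and 0.144 CPM with dexamethasone. ANGPTL2, a secreted angiopoietin-like protein, was at 95.3, 18.9 and 130 CPM with TGF-β1 and 0.739, 1.04 and 0.957 CPM with dexamethasone, with replicate 2 the lowest of the TGF-β1 libraries. TFCP2L1, a transcription factor of epithelial cells, does belong to a list, that of glucocorticoid targets. It was driven apart, at 5.43, 3.09 and 3.93 CPM with TGF-β1, 11.5, 13.3 and 8.98 CPM untreated and 192, 324 and 208 CPM with dexamethasone. PPP1R16B, a regulatory subunit of protein phosphatase 1, was at 0.35, 0 and 0.337 CPM with TGF-β1, 2.88, 7.14 and 2.22 CPM untreated and 6.21, 23.1 and 9.72 CPM with dexamethasone, its untreated and dexamethasone libraries overlapping. Of 548 long noncoding RNAs tested 79 were higher with TGF-β1 and 116 with dexamethasone, beside 3408 and 3624 of 12469 protein-coding genes.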
